A study of Rattus norvegicus with 6 samples.

Results

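Protein reabsorption receptors and lysosome genes were followed in the renal cortex of rats dosed with the diaryl sulfone compound sulfone bis(p-chlorophenyl). The genes were a fixed list of 39 rat genes in 7 roles: endocytic receptors and their partners, cathepsins and other lysosomal proteases, glycosidases, sulfatases, lysosomal lipid handling, lysosomal membrane proteins, and a regulator with a secreted factor. Array probes were assigned to them by accession, and each gene was read from its brightest probe among those well above background on each of the 3 arrays of at least 1 group. This found 38 of the 39 genes, among 12118 genes tested in all. Naglu, a glycosidase gene of heparan sulfate breakdown, had no matched probe and was not analysed here. All 38 probes were well above background on all 6 arrays.

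Male Sprague-Dawley (Crl:CD(SD)) rats, 5 weeks old when bought, were compared in 2 groups of 3 animals. Vehicle animals (VC) received corn oil and treated animals received 250 mg/kg/day of the compound, both for 4 weeks. Cortex RNA from each animal was read on its own Agilent rat array in a single colour, Cy3. A level below is log2 of the processed spot signal minus the array's 75th percentile, and a difference is the treated mean minus the vehicle mean on that scale. Vehicle 1 to 3 and treated 1 shared slide 1 and scan 1, whereas treated 2 and 3 were on slide 2 and scan 2. Array pairs correlated at 0.982 to 0.994 across tested probes. All 16 proximal tubule markers and all 8 markers of other nephron segments were well above background on all 6 arrays.

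The proximal tubule takes up filtered proteins through megalin (Lrp2) and cubilin (Cubn), large receptors of the brush border. Amnionless (Amn) anchors cubilin in the membrane, and Dab2 links megalin to the clathrin coat. Ligands are released in acidifying endosomes, the receptors recycle, and the proteins are degraded in lysosomes by cathepsins and other proteases. Lysosomes also hold glycosidases, sulfatases and lipid hydrolases. The transcription factor TFEB drives many lysosomal genes through an E-box element in their promoters. Cortex is a mixture of cells, so fewer cells of a type and less RNA per cell cannot be told apart in these levels.

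Differences in this system were small. None of the 38 genes passed the limma test adjusted over all probes (0 of 38, against 0.0165% of all tested genes), and the lowest adjusted p was 0.13, for Dab2. At an unadjusted p under 0.05 there were 9 genes (23.7%, against 21.4% of all tested genes). Of these, 4 were higher in treated cortex (Gusb, Lipa, Mcoln1 and Cln3, 10.5% against 10.1%) and 5 were lower (Lrp2, Dab2, Ctsz, Npc1 and Grn, 13.2% against 11.3%). These shares lay near the background. Groups did not overlap for 15 genes (39.5%, against 30.7%), 5 higher (13.2%, against 13.9%) and 10 lower (26.3%, against 16.8%). The median difference was -0.05 over the 38 genes and -0.01 over all tested genes.

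At the probe read for each gene, the intervals bound the difference between groups for most of these genes. The fit behind them has no term for slide. No difference at these probes exceeded 0.33 on the log2 scale in either direction. Other Npc1 probes went further, to -0.53 (SE 0.14) and -0.47 (SE 0.31). The 95% limma interval lay within a 1.5-fold change either way for 35 of the 38 genes. The widest interval belonged to the dim Galns probe, from -0.53 to 1.06. The spread among treated arrays was wider than among vehicle arrays for 32 of the 38 genes, against 67.3% of all tested genes. Treated arrays lay on slides 1 and 2 and vehicle arrays on slide 1 only. Spread among animals and a shift between slides therefore cannot be told apart here. The median range was 0.28 over the treated and 0.14 over the vehicle arrays.

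**Figure D1:**
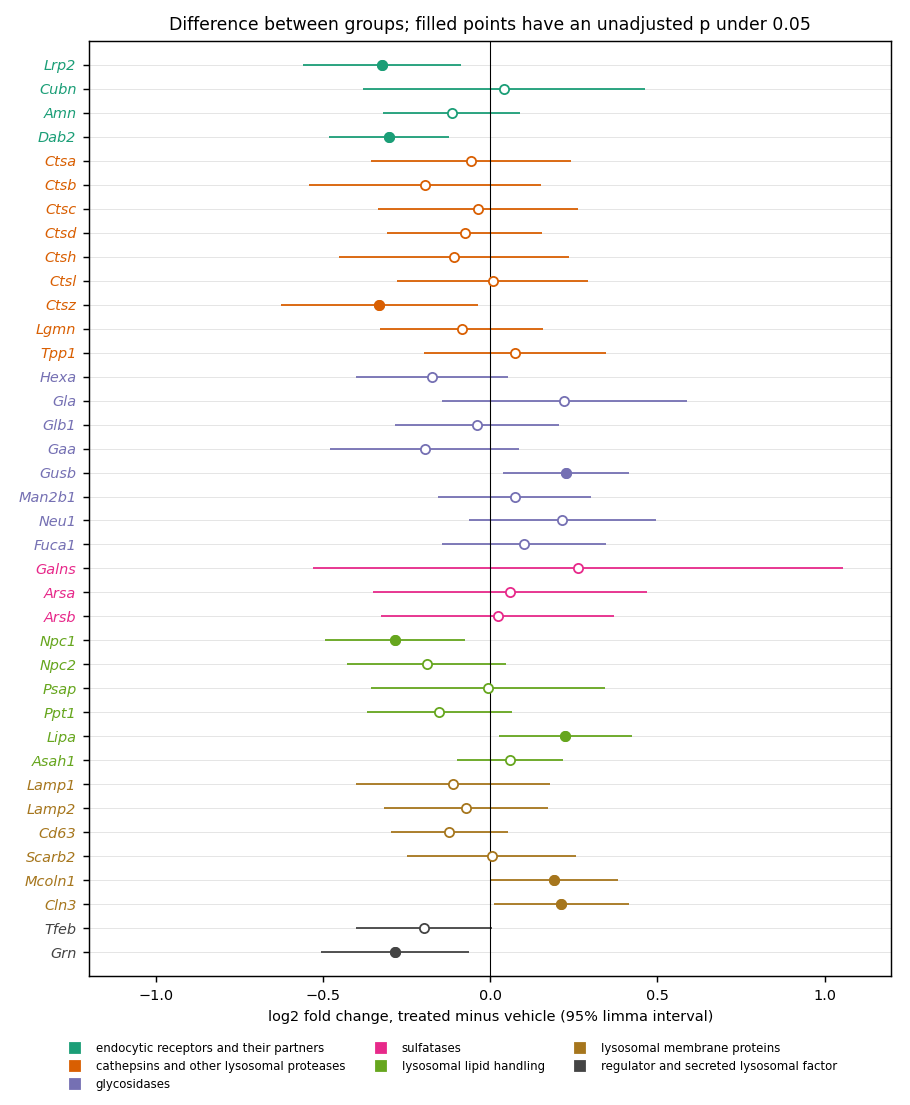
Differences in log2 signal (treated minus vehicle, 3 arrays each) for 38 receptor and lysosome genes, with 95% limma intervals. Colours give the role and filled points mark the 9 genes with an unadjusted p under 0.05, none of which lay beyond 0.33 either way.

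Among the receptors, Lrp2 and Dab2 were lower in treated cortex at an unadjusted p under 0.05, while the groups overlapped for Cubn. The share was 2 of only 4 genes (50%, against 11.3% of all tested genes). Lrp2 levels were 6.46, 6.55 and 6.51 in vehicle 1, 2 and 3 and 6.14, 6.35 and 6.06 in treated 1, 2 and 3. All 3 treated arrays lay below all 3 vehicle arrays. The difference was -0.33 (SE 0.10, limma adjusted p = 0.17), and the other Lrp2 probe gave -0.29. Dab2 levels were 4.83, 4.90 and 4.85 in vehicle and 4.56, 4.63 and 4.49 in treated 1, 2 and 3. The groups were again separate, and the gap between them was wide compared with the range inside each. The Dab2 difference was -0.30 (SE 0.07, 1.23-fold lower, limma adjusted p = 0.13), and the other Dab2 probe gave -0.25. Among the 38 genes, Dab2 alone kept an unadjusted p under 0.05 under all 17 alternative settings, at -0.35 to -0.26, without passing the adjusted test in any.

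Cubn levels were 5.75, 5.6 and 5.52 in vehicle 1, 2 and 3 and 5.31, 5.93 and 5.76 in treated 1, 2 and 3. Treated 1 was the lowest of the 6 arrays and treated 2 the highest, so the groups overlapped. The difference was 0.04 (95% interval -0.38 to 0.46), and its sign turned under several settings: -0.01 with quantile normalization, -0.32 with slide as a fixed block, -0.12 with slide as a random block, and -0.09 without treated 2. Without vehicle 3 or treated 3 it was also just below 0. Amn levels were 5.81, 5.88 and 5.79 in vehicle and 5.59, 5.75 and 5.79 in treated 1, 2 and 3. The groups were separate by a margin too small to show at this rounding, and the difference was -0.12 (SE 0.08, limma adjusted p = 0.46). The Lrp2 difference minus the Cubn difference, taken within each array, was -0.37. This contrast, chosen after the values were seen, gave an exact two-sided permutation p of 0.2, where 0.1 is the smallest that 3 against 3 allows. Relative to the vehicle mean it was -0.05 on treated 1, -0.46 on treated 2 and -0.58 on treated 3.

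The cathepsins and other proteases had 1 gene with an unadjusted p under 0.05 of 9 (11.1%, against 21.4% of all tested genes) and a median difference of -0.08. Ctsz, an exopeptidase, had levels of -0.999, -1.31 and -1.06 in vehicle 1, 2 and 3 and -1.33, -1.61 and -1.43 in treated 1, 2 and 3. Vehicle 2 lay just above treated 1. The difference was -0.33 (SE 0.12, 1.26-fold lower, limma adjusted p = 0.21). The endopeptidases of tubular protein breakdown overlapped between groups: Ctsb differed by -0.20 (95% interval -0.54 to 0.15), Ctsd by -0.08 (-0.31 to 0.16) and Ctsl by 0.01 (-0.28 to 0.29). The aminopeptidase genes Ctsh (-0.11) and Tpp1 (0.08), the dipeptidyl peptidase gene Ctsc (-0.04), the carboxypeptidase gene Ctsa (-0.06) and the legumain gene Lgmn (-0.09) overlapped as well. A second Ctsl probe gave 0.15 and a second Tpp1 probe -0.04.

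The glycosidases had 1 gene with an unadjusted p under 0.05 of 8 (12.5%, against 21.4% of all tested genes), a median difference of 0.09 and 5 of 8 genes above 0. Gusb, beta-glucuronidase, had levels of 0.07, 0.11 and 0.16 in vehicle 1, 2 and 3 and 0.25, 0.41 and 0.35 in treated 1, 2 and 3. All treated arrays were above all vehicle arrays. The difference was 0.23 (SE 0.08, 1.17-fold higher, limma adjusted p = 0.20), but the other 2 Gusb probes gave 0.10 and -0.06, so the probes of this gene disagreed. Neu1, a sialidase, differed by 0.22 (SE 0.11), with 0.29 at its other probe, and Gla, alpha-galactosidase A, by 0.22 (SE 0.15). In both, treated 1 lay within the vehicle range while treated 2 and 3 lay above it. The remaining glycosidases were Fuca1 (0.10), Man2b1 (0.07), Glb1 (-0.04), Hexa (-0.17) and Gaa (-0.20), none with an unadjusted p under 0.05.

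Sulfatases, which remove sulfate from glycosaminoglycans and sulfatides, gave 0 of 3 genes with an unadjusted p under 0.05 (against 21.4% of all tested genes). Galns had levels of -4.12, -5.11 and -4.56 in vehicle 1, 2 and 3 and -4.82, -4.27 and -3.91 in treated 1, 2 and 3. The groups overlapped, and the difference of 0.26 (SE 0.32) was smaller than the spread in either group (SD 0.50 in vehicle and 0.46 in treated, n = 3 each). It was 0.0062 without vehicle 2, 0.05 without treated 3, 0.50 without vehicle 1 and 0.51 without treated 1. The fixed slide block turned its sign (-0.22). Arsa differed by 0.06 (SE 0.17) and Arsb by 0.02 (SE 0.14).

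The lipid genes split. At an unadjusted p under 0.05, 1 of 6 was higher (16.7%, against 10.1% of all tested genes) and 1 lower (16.7%, against 11.3%). Npc1, the membrane protein that exports cholesterol from lysosomes, had levels of 1.55, 1.60 and 1.47 in vehicle 1, 2 and 3 and 1.38, 1.18 and 1.21 in treated 1, 2 and 3. Treated arrays were all below vehicle arrays, and the difference was -0.28 (SE 0.09, 1.22-fold lower, limma adjusted p = 0.17). Each of the other 6 Npc1 probes was also lower, by -0.53 to -0.04. Npc2, the soluble partner that hands cholesterol to Npc1, differed by -0.19 (SE 0.10), with overlapping groups. Lipa, the acid lipase that frees cholesterol from its esters, ran the other way, with levels of 3.27, 3.31 and 3.13 in vehicle and 3.41, 3.47 and 3.50 in treated 1, 2 and 3. Its difference was 0.22 (SE 0.08, 1.17-fold higher, limma adjusted p = 0.21), with no overlap. Ppt1, a thioesterase, differed by -0.15 (SE 0.09) and Asah1, acid ceramidase, by 0.06 (SE 0.06). Psap, the precursor of the saposin cofactors, differed by -0.01 (95% interval -0.36 to 0.34).

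Of the 6 lysosomal membrane genes, Mcoln1 and Cln3 were higher at an unadjusted p under 0.05 (33.3%, against 10.1% of all tested genes). The other 4 had larger p-values. Mcoln1, a calcium channel of the lysosome, had levels of 3.95, 4.0 and 3.99 in vehicle 1, 2 and 3 and 4.28, 4.12 and 4.12 in treated 1, 2 and 3. Its groups did not overlap, and the difference was 0.19 (SE 0.08, 1.14-fold higher, limma adjusted p = 0.24). Cln3, the gene mutated in juvenile neuronal ceroid lipofuscinosis, had levels of -2.28, -2.26 and -2.37 in vehicle and -2.19, -2.08 and -1.999 in treated 1, 2 and 3. The difference was 0.21 (SE 0.08, 1.16-fold higher, limma adjusted p = 0.23), and the other Cln3 probe gave 0.23. Lamp1 differed by -0.11 (SE 0.12), Lamp2 by -0.07 (SE 0.10), the tetraspanin gene Cd63 by -0.12 (SE 0.07) and Scarb2, a membrane protein of the lysosome, by 0.00 (95% interval -0.25 to 0.26).

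Tfeb and Grn lay lower in treated cortex. Tfeb levels were -0.78, -0.67 and -0.78 in vehicle 1, 2 and 3 and -0.97, -1.01 and -0.83 in treated 1, 2 and 3. The groups were separate, but the difference of -0.20 (SE 0.08) had a 95% interval that included 0 and a limma adjusted p of 0.25, and the other Tfeb probe gave -0.03. Tfe3, a related factor, differed by 0.05 (SE 0.06) and Mitf by -0.20 (SE 0.10). Grn, which encodes progranulin, a precursor taken up into lysosomes, had levels of 4.41, 4.36 and 4.29 in vehicle and 3.94, 4.18 and 4.09 in treated 1, 2 and 3. All treated arrays were lower, and the difference was -0.28 (SE 0.09, 1.22-fold lower, limma adjusted p = 0.18). The other Grn probe gave -0.23.

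**Figure D2:**
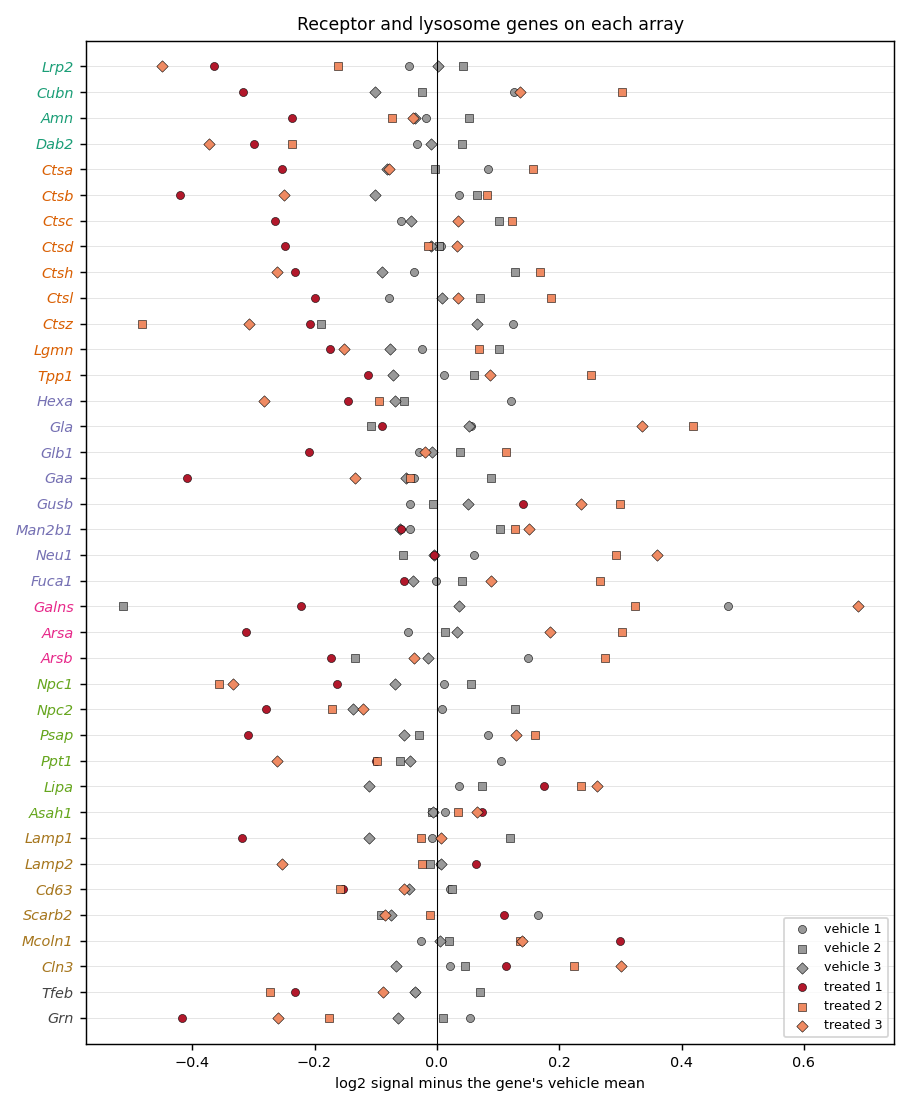
Log2 signal of each of the 38 genes on each of the 6 arrays, minus that gene's vehicle mean, with vehicle arrays in grey and treated arrays in red or orange. Dab2, Lrp2, Npc1 and Grn have all treated points left of the vehicle points, and Gusb, Lipa, Mcoln1 and Cln3 have them to the right. Treated 1 is the lowest point for 18 genes (47.4%, against 21.7% of all tested genes).

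Promoter letters are shown because 2 of the 4 genes with a higher level, Mcoln1 and Cln3, carry the element that TFEB binds, and so do Lamp1 and Ctsd, whose groups overlapped. RefSeq promoters (GRCr8, 250 bases before to 50 after the start) were found for 32 of the 39 genes and searched on both strands for the palindromes TCACGTGA and CACGTG, the first of which contains the second. Among the 32, 4 held TCACGTGA (0.777% of all 33469 promoters did) and 8 held CACGTG (6.42%). The extended palindromic CLEAR motif, which contains both, was in 0 of the 32 and in 0.233% of all promoters. Windows of 60 bases are printed 5′ to 3′ in the gene's direction, with matches to CACGTG or TCACGTGA in capitals. They lie at chr12:6358213-6358272 (plus strand, Mcoln1), chr1:190597945-190598004 (minus strand, Cln3), chr16:83075079-83075138 (minus strand, Lamp1) and chr1:206968822-206968881 (minus strand, Ctsd).
Mcoln1: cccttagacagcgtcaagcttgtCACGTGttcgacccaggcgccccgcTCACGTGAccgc
Cln3: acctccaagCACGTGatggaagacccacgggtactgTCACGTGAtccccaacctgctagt
Lamp1: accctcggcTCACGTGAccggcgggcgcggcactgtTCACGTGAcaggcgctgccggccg
Ctsd: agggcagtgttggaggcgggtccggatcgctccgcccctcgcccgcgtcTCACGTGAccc
The Mcoln1 window starts 45 bases before the gene's start, and its TCACGTGA begins 3 bases after that start. The match began 39 bases before the start in Cln3, 66 and 39 bases before it in Lamp1, and 11 bases before it in Ctsd. The 4 genes with this match differed by 0.19, 0.21, -0.11 and -0.08, in the order of the windows. The remaining genes with CACGTG were Amn (-0.12), Cd63 (-0.12), Gaa (-0.20) and Glb1 (-0.04). Gusb and Lipa, which were also higher, held neither palindrome. A match is a description of the letters only.

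Receptors, proteases and glycosidases were then set side by side on each array. Relative to each gene's vehicle mean, the receptor genes had medians of -0.31, -0.12 and -0.20 on treated 1, 2 and 3, below 0 on each. The proteases had -0.23, 0.12 and -0.08, with no common direction. The glycosidases had -0.07, 0.20 and 0.12, so they stood above the proteases and the receptors on every treated array. On the vehicle arrays all 3 roles lay between -0.07 and 0.07, where values near 0 are partly built in because these arrays set the reference. Over all tested genes the medians were -0.03, 0.01 and -0.01 on treated 1, 2 and 3. Roles hold few genes each, and no test was made of their medians.

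**Figure D3:**
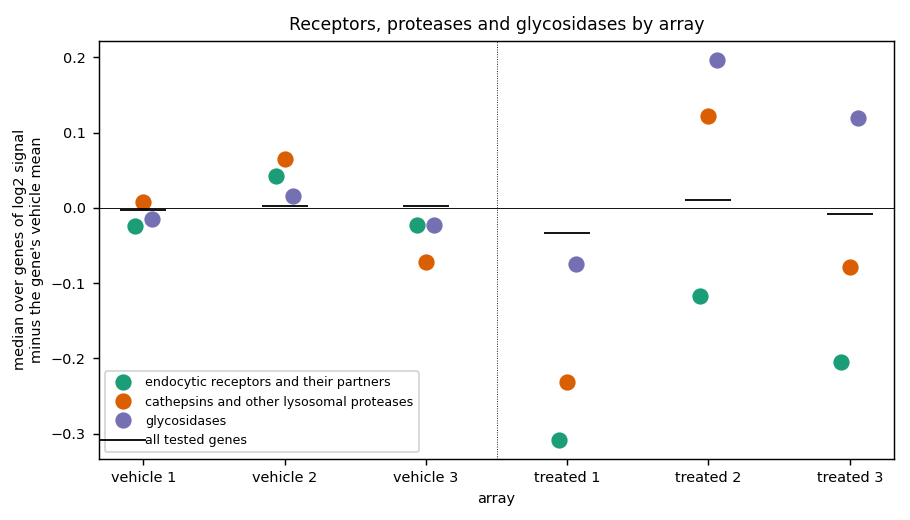
Median over genes of log2 signal minus the vehicle mean, on each array, for 4 receptor genes, 9 proteases and 8 glycosidases, with all tested genes as bars. Receptors lie at -0.31, -0.12 and -0.20 on treated 1, 2 and 3 and glycosidases at -0.07, 0.20 and 0.12.

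Treated 1 stood apart from treated 2 and 3 for much of the list. It lay below all 3 vehicle arrays for 27 of the 38 genes (71.1%, against 38.6% of all tested genes). The counts were 13 genes for treated 2 (34.2%, against 34.2%) and 15 for treated 3 (39.5%, against 38.7%). Other lists had raised shares on treated 1 as well: 64% of the proton pump and ion transport genes, 54.3% of the other lysosomal hydrolases and 56.2% of the proximal tubule markers. Whether the 38 genes differ from those lists was not tested. All 9 proteases and all 4 receptor genes were among the 27. Ctsb levels, for example, were 8.71, 8.74 and 8.57 in vehicle 1, 2 and 3 and 8.26, 8.76 and 8.42 in treated 1, 2 and 3. The median over the 38 genes was -0.20 on treated 1, 0.10 on treated 2 and -0.03 on treated 3. Under other scalings the median on treated 1 was -0.19 with normexp, -0.18 with quantile normalization and -0.20 with median centring. The share of genes below all vehicle arrays on treated 1 also grew with signal, from 35.0% of genes with a vehicle mean under 0 to 52.6% of the 363 genes with a vehicle mean of 6 or more. In that bright range 10 of the 11 listed genes were below all vehicle arrays. Their median on treated 1 was -0.23, and that of all 363 genes was -0.05. The part of signal level in the treated 1 values was not tested.

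A fit with slide as a fixed block compares only treated 1 with the vehicle arrays on its slide, because slide 2 held treated arrays only. Its treated side is 1 animal, assumed to vary like the others, so it describes that animal and not the treatment. That fit gave 10 listed genes lower at an unadjusted p under 0.05 (7.45% of all tested genes were) and 1 higher (6.4%), with 0 called after adjustment (0% of all tested genes), and a median of -0.20. The 10 were Lrp2, Amn, Dab2, Ctsb, Ctsd, Gaa, Arsa, Psap, Lamp1 and Grn. The higher gene was Mcoln1, at 0.30. Without treated 1, treated 2 and 3 against vehicle gave 6 higher (15.5% of all tested genes) and 5 lower (16.5%). Here 1 gene was called, Npc1 at -0.34 (limma adjusted p = 0.049, where 9.37% of all tested genes were called). In that comparison, treated 2 and 3 were on slide 2 and vehicle on slide 1, so treatment and slide cannot be told apart. Npc1 was at -0.16 for treated 1, which shared the vehicle slide. Both fits share the 3 vehicle arrays, so their values are only given side by side. Lrp2, Dab2 and Grn were at -0.36, -0.30 and -0.42 for treated 1 and at -0.31, -0.30 and -0.22 for treated 2 and 3. Arsa was at -0.31 for treated 1 and at 0.24 for treated 2 and 3. Slide and animal cannot be told apart for treated 1 against treated 2 and 3. Proximal tubule markers were mixed on treated 1, with 9 of 16 below all vehicle arrays and 5 above all of them (Slc5a12, Ggt1, Anpep, Mme and Hnf4a). Their summed signal, which the brightest genes dominate, in multiples of the array's 75th percentile, was 2568 to 2644 in vehicle, 2398 on treated 1, and 2959 and 2936 on treated 2 and 3. The part of the tubule share in these values was not tested.

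**Figure D4:**
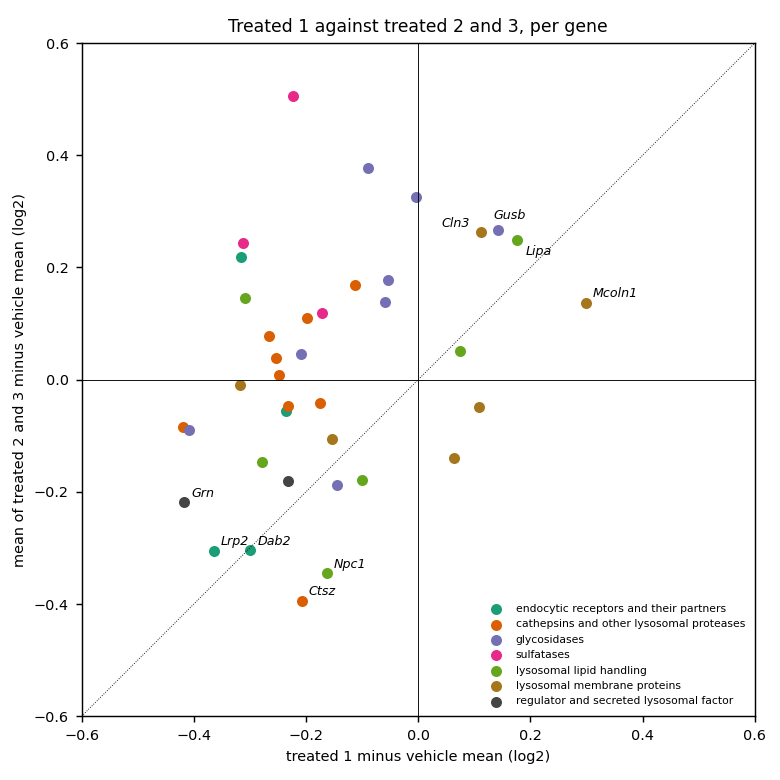
Log2 signal of each gene on treated 1 (x) and as the mean of treated 2 and 3 (y), both minus the vehicle mean, with the dotted line at equality. Lrp2, Dab2, Grn, Npc1 and Ctsz are below 0 on both axes, Gusb, Lipa, Mcoln1 and Cln3 are above 0 on both, and treated 1 gives the lower value for most other genes.

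Macrophages are rich in lysosomes, and some of their markers had lower levels in treated cortex. Of 18 markers, 16 were tested. At an unadjusted p under 0.05, 6 were lower (37.5%, against 11.3% of all tested genes) and 1 higher (6.25%, against 10.1%). The higher marker was Mrc1 (0.75, SE 0.20). Of the 6, Msr1 (-1.80) passed the filter through vehicle only, with 3 vehicle and 2 treated arrays well above background. The rest of the 6 were Adgre1 (-0.85), Aif1 (-0.56), Fcer1g (-0.49), Tyrobp (-0.38) and Fcgr1a (-0.36). These were well above background on all 3 arrays of both groups. The median difference was -0.31, with 13 markers below 0 and 3 above (Mrc1, Cd14 at 0.50 and C1qb at 0.04). The summed signal of these markers was 165.8 to 188.5 in vehicle and 127.3 to 179.4 in treated arrays. Cd163 and Itgam were not well above background on all 3 arrays of either group. The lysosomal marker Cd68 had levels of 1.05, 0.67 and 0.93 in vehicle and 0.79, 0.34 and 0.39 in treated 1, 2 and 3, a difference of -0.38 (SE 0.16) with overlapping groups. Ctss, a cathepsin of antigen-presenting cells, differed by 0.07 (SE 0.15). On treated 1 the summed signal, which the brightest markers dominate, was 179.4, inside the vehicle range. Of the 16 tested markers, 4 were below all vehicle arrays on treated 1 (25%, against 38.6% of all tested genes). On the same array 27 of the 38 listed genes (71.1%) were below all vehicle arrays, among them Grn, Lrp2, Npc1 and Ctsz. The part of macrophages in the Ctsz, Npc1 and Grn differences was not tested.

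The wider pathway was read from 4 further gene lists, in which 0 genes passed the adjusted test. Of 35 other lysosomal hydrolases and cofactors, 5 were higher (14.3%, against 10.1% of all tested genes) and 3 lower (8.57%, against 11.3%) at an unadjusted p under 0.05, with a median of -0.03. Plbd1, a phospholipase-like protein, was lower (-0.35, SE 0.07, limma adjusted p = 0.11), with levels of 0.72, 0.73 and 0.77 in vehicle and 0.36, 0.37 and 0.43 in treated 1, 2 and 3. The hyaluronidase gene Hyal1 (0.95, SE 0.34) and Epdr1 (0.61, SE 0.20) had the highest values among the 5. Both are dim, and neither passed (limma adjusted p = 0.21 and 0.18). The rest of the 5 were brighter, with vehicle means of 3.80, 3.99 and 2.41. They were Acp2 (0.41, SE 0.12), Hyal2 (0.40, SE 0.09) and Pla2g15 (0.28, SE 0.08), in that order.

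The proton pump and ion transport list had 1 of 25 genes at an unadjusted p under 0.05 (4%, against 21.4% of all tested genes), the pump subunit gene Atp6v1d (-0.33, SE 0.09), and a median of -0.04. Clcn5, the endosomal chloride exchanger mutated in Dent disease, differed by -0.12 (SE 0.13). Among 30 endocytosis and recycling genes, 3 had an unadjusted p under 0.05 (10%, against 21.4%). The higher 2 were the sorting nexin gene Snx1 (0.22, SE 0.08) and the clathrin light chain gene Cltb (0.18, SE 0.07), and the lower 1 was Rab7a, the GTPase of late endosomes (-0.24, SE 0.08). Lrpap1, the chaperone of megalin, differed by -0.09 (SE 0.09), and the list median was 0.00.

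Of 26 autophagy genes, 4 were higher at an unadjusted p under 0.05 (15.4%, against 10.1% of all tested genes) and 0 lower (against 11.3%), with a list median of 0.06. The adaptor gene Sqstm1 had levels of 4.48, 4.32 and 4.42 in vehicle and 4.69, 5.09 and 5.41 in treated 1, 2 and 3, a difference of 0.66 (SE 0.19, limma adjusted p = 0.16). Gabarapl1, which coats autophagosomes, had 7.60, 7.55 and 7.52 in vehicle and 7.86, 8.19 and 8.20 in treated arrays, a difference of 0.53 (SE 0.11, limma adjusted p = 0.12). In both, treated 1 was the lowest treated array and still above every vehicle array. Wipi1 (0.47, SE 0.17) and Map1lc3a (0.29, SE 0.10) were the other 2.

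**Figure D5:**
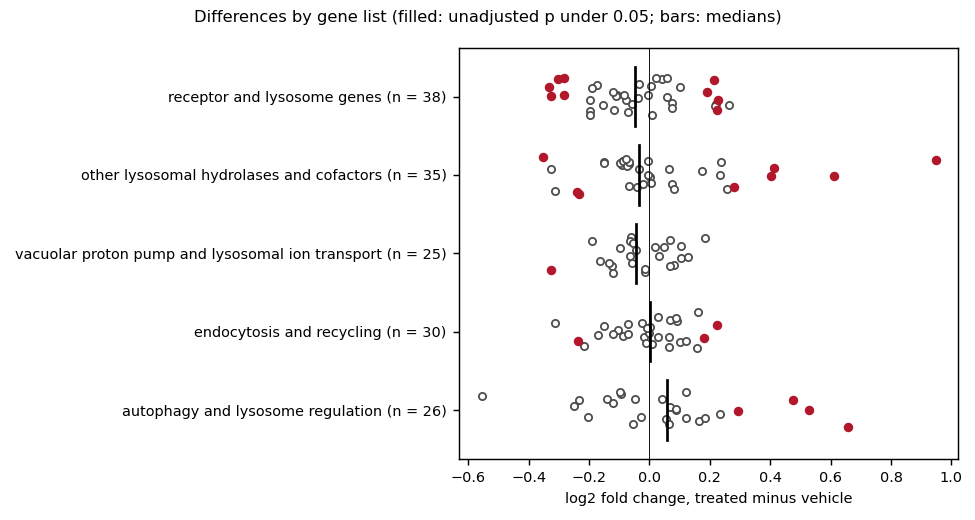
Log2 differences (treated minus vehicle) of the 38 receptor and lysosome genes and of 4 further lists, 1 point a gene, with filled points at an unadjusted p under 0.05 and bars at list medians. The medians run from -0.05 to 0.06, and the points above 0.4 belong to the hydrolase and autophagy lists.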

How the data were processed

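Per the file headers, the authors extracted spot intensity values with Agilent Feature Extraction 10.7.1.1 (version 10.7 per the submitters' processing notes), which subtracts background within each array. No spot was saturated, and 11 probes with an outlier flag were left out of 61537. Each array's 75th percentile was subtracted from its processed signal after both were put on the log2 scale. A probe was tested when well above background on all 3 arrays of a group (40643 probes), and accessions were matched without versions to the RefSeq table of GRCr8 (28206 probes had 1 symbol, 33331 none). The brightest tested probe stood for a gene. The test was limma's moderated two-sided test (version 3.58.1, R 4.3.3), its p-values adjusted by Benjamini-Hochberg over all tested probes, at a threshold of 0.05. An alternative used the intensity table deposited by the authors, whose scaling is not stated; on the log2 scale each column correlated with the processed signal at 0.999999 or more. In that linear table the vehicle columns had medians of 0.11, 0.108 and 0.109, and the treated columns 0.109, 0.105 and 0.105. The normexp alternative used the median spot signal.

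The genes and lists were chosen with earlier results of these data known. Arrays are given in full for the receptors, Tfeb, Grn, every listed gene with an unadjusted p under 0.05, the largest difference of each role and, beyond this rule, a few genes chosen after their values were seen. Of each further list, the 2 highest and 2 lowest such genes without overlap were named by rule. One gene under this rule is not reported here. In simulated data with the real means and spreads (40643 probes), a small set of probes was given known changes. Of these changed probes, the test called 10% at a log2 change of 0.5, 48% at 1 and 88% at 2. The simulated noise was independent between probes and arrays, with no slide shift, so these shares may not carry over to the real arrays. The labels name separate animals, and 3 arrays per group limit the precision.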

Additional observations from a re-analysis of the deposited data

How the results depend on the processing

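Over 17 alternatives, 0 of the 38 genes were called in all but 1: with single arrays left out, 0 to 1 genes were called, Npc1 without treated 1. Without treated 1, all treated arrays are on slide 2 and all vehicle arrays on slide 1, so treatment and slide cannot be told apart. The number of genes higher at an unadjusted p under 0.05, 4 as reported, was 2 with normexp and without a filter on dim probes, 1 with slide as a fixed or random block, and 0 to 6 with single arrays left out (0 without vehicle 1, treated 2 or treated 3, 1 without vehicle 2 or vehicle 3, 6 without treated 1). The number lower, 5 as reported, was 10 with slide as a fixed block and 2 to 5 with single arrays left out (2 without vehicle 1 or vehicle 2). The median of -0.05 was -0.20 with slide as a fixed block and -0.11 to 0.02 with single arrays left out. With the replicate block, 0 genes were higher and 4 lower; the numbers did not pair the animals, since deviations of same-numbered arrays correlated at -0.21, 0.01 and -0.16. Cubn turned negative with quantile normalization (-0.013), slide as a fixed (-0.32) or random block (-0.12), and ran from -0.091 to 0.22 with single arrays left out. Galns was -0.22 with slide as a fixed block and ran from 0.0062 to 0.51 with single arrays left out. Lrp2, Amn, Dab2, Ctsz, Gusb, Npc1, Lipa, Mcoln1, Cln3, Tfeb and Grn kept their sign under all 17. Their groups did not overlap, so most of these settings could not have turned it. That holds for leaving out an array, a slide or replicate block, the variance trend and the filters. Only other scalings or values and the mean over probes could have done so. The slide block rests on 1 treated array; other causes were not tested.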
